A study of Mus musculus with 7 samples.

Results

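The 7 genes Adora2a, Penk, Gpr6, Rgs9, Pde10a, Ppp1r1b and Rxrg, which are typical of the medium spiny neurons of the striatum, were examined in the medial prefrontal cortex. They were taken by symbol from the authors' deposited table, and each matched 1 of its 17732 genes. They were chosen with earlier results of these data in view and so count as selected on the fold changes and p-values of this same comparison, which are given as a description and support no test. RNA came from male mice of the inbred strain 129SvEv, wild type, after retrieval of a remote memory. The libraries fell into a group labelled CFC (n = 3) and a group labelled SC (n = 4), which the labels do not spell out; the labels give no age, and every animal carried the same genotype. The series concerns safety learning and the infralimbic cortex, the ventral part of this region. Neither the labels nor the header of the table say which group is the numerator of a fold change, so each difference keeps its deposited sign, positive or negative, and which group had more is not stated.

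Medium spiny neurons are inhibitory projection neurons that make up most of the striatum, which lies beneath the frontal cortex across a sheet of white matter. Those of the indirect pathway carry the dopamine receptor Drd2 and hold Adora2a, Gpr6 and Penk, and those of the direct pathway carry Drd1 and hold Tac1 and Pdyn. In both classes dopamine and adenosine receptors act on cyclic AMP, which activates protein kinase A (PKA) and is broken down by Pde10a. The protein DARPP-32, made from Ppp1r1b, inhibits protein phosphatase 1 when PKA has phosphorylated it. Rgs9 shortens the signal of G proteins of the inhibitory class, and Rxrg is a nuclear receptor that pairs with retinoic acid receptors. Several of these genes are also known in cortex: Penk in some interneurons, Ppp1r1b in projection neurons, mostly of the deep layers, and Pde10a at a lower level than in striatum.

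The product of Penk is a precursor that is cut into opioid peptides, and the copies of their coding sequence are shown because the counted transcript stands for all of them. A search of the Penk coding sequence in GENCODE M21 (807 bases, 268 codons before the stop) found 6 copies of Met-enkephalin and 1 of Leu-enkephalin. They are named by the first codon, counted from the start codon, and capitals mark the last codon, the place where the 2 peptides differ.
Penk Met-enkephalin, codon 100: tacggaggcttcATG
Penk Met-enkephalin, codon 107: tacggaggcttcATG
Penk Met-enkephalin, codon 136: tatggcggcttcATG
Penk Met-enkephalin, codon 187: tatgggggcttcATG
Penk Met-enkephalin, codon 211: tacgggggcttcATG
Penk Leu-enkephalin, codon 231: tatgggggcttcCTG
Penk Met-enkephalin, codon 262: tacgggggctttATG
In Ppp1r1b, capitals mark the threonine codon at position 34, the residue whose phosphorylation by PKA makes DARPP-32 an inhibitor.
Ppp1r1b PKA target site, codon 34: cggagaccaACCcct

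RefSeq promoters of GRCm38.p6 were at hand for 4 of the 7 genes (Gpr6, Rgs9, Pde10a and Rxrg), and the 250 bases before each of their start sites were searched on both strands. The cyclic AMP response element TGACGTCA, a palindrome bound by CREB after PKA activation, was found in Gpr6 and in none of the other 3, and in 1.55% of all 32851 promoter windows. It began 78 bases before the start of Gpr6. The window is chr10:41072291-41072540 on the minus strand, shown because Gpr6 is one of the genes of cyclic AMP signalling, with the element in capitals.
Gpr6 promoter: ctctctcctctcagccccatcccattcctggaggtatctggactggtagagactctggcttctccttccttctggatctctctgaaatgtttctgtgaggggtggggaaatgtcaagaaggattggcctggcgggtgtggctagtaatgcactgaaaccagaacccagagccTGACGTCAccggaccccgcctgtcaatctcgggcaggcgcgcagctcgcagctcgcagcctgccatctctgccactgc
The half-site of nuclear receptors AGGTCA was found before 1 of the 2 starts of Rxrg and in 14.0% of windows. The Sp1 site GGGCGG was found before Rgs9 and 1 of the 2 starts of Pde10a (32.7% of windows), and TATAAA before Rgs9, 195 bases from its start (12.4% of windows). The letters TGCGTCA, part of the enhancer known from Penk (1.75% of windows), and the AP-1 site TGANTCA (6.75%) were in none of the 4 genes. The Egr site GCGGGGGCG (2.57%) and the repeat of AGGTCA at a spacing of 5 bases, known from retinoic acid response elements (3 of the 32851 windows), were also in none of the 4. The core TGACG was in Gpr6 alone of the 4, on each strand within the element in capitals, and in 17.8% of windows. A match of letters is a description of the window and not evidence that a factor binds there.

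The genes lie on 5 chromosomes of GRCm38. In GENCODE M21, Adora2a (ENSMUSG00000020178) spans chr10:75316877-75334784 and Gpr6 (ENSMUSG00000046922) chr10:41069977-41072285. Penk (ENSMUSG00000045573) spans chr4:4133531-4138819, Pde10a (ENSMUSG00000023868) chr17:8525372-8986648 and Rxrg (ENSMUSG00000015843) chr1:167598384-167639623. Rgs9 (ENSMUSG00000020599) spans chr11:109225355-109298129 and Ppp1r1b (ENSMUSG00000061718) chr11:98348404-98357796. Exons of Ppp1r1b overlap 460 bases of 1700003D09Rik, and exons of Penk 233 bases of A830012C17Rik, each on the opposite strand. Whether counting used strand is not given in the sources used here, so reads of each pair may not be separated. 1700003D09Rik had a mean normalized count of 9.80 per the authors' deposited table, against 959 for Ppp1r1b.

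For each gene the authors' deposited table holds a mean normalized count over the 7 libraries, a log2 fold change, its standard error and p-values. Values of single libraries were not analysed here. Mean counts ran from 1.26 to 153564, with a median of 255, per the authors' deposited table. Nothing in the labels ties each library to an animal, so p-values measure the spread between these libraries, which may be technical in part. Of the markers of cortical excitatory neurons, Slc17a7, a vesicular glutamate transporter, had a mean count of 34713 per the authors' deposited table. Camk2a had one of 106077 and Nrgn one of 19010. These pooled means cannot tell the labelled region from other cortex, and whether other tissue was present was not tested. An adjusted p-value under 0.05 was listed by the authors for 67 genes of 13060, or 0.513%, and 48 of the 67 were positive, per the authors' deposited table.

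All 7 genes had a positive log2 fold change per the authors' deposited table, as did 50.3% of the genes with a p-value. The values ran from 0.11 for Rxrg to 1.95 for Adora2a, with a median of 0.70. An adjusted p-value is given for 6 of the 7 by the authors' deposited table, and none of the 6 was under 0.05. The seventh, Gpr6, has no adjusted p-value there; its mean count of 32.4 is under 34.9, the lowest of any gene with one. Without adjustment, 4 of the 7 had a p-value under 0.05 per the authors' deposited table, all positive, where 6.82% of all genes passed in either direction and 4.04% on the positive side. A log2 fold change above 1 was listed for 3 of the 7 and for 2.78% of all genes per the authors' deposited table. The choice of the genes used this comparison, so nothing is read from these shares. In bulk RNA, fewer cells of a type and less RNA per cell cannot be told apart.

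**Figure D1:**
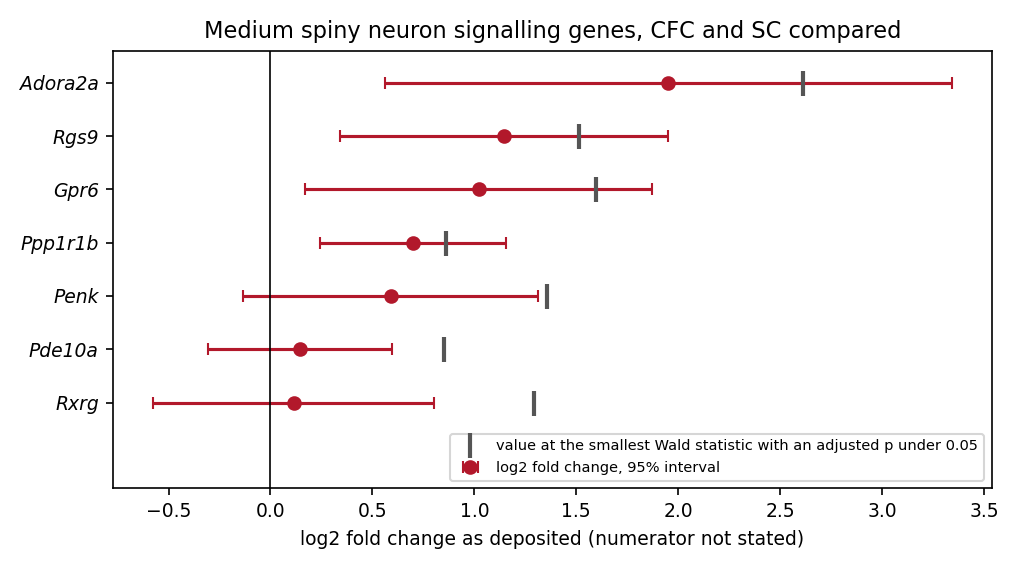
The x axis gives the log2 fold change between the CFC and SC groups as deposited, for each of the 7 genes; red points and bars are the value and its 95% confidence interval, and grey ticks the value each gene would need at its standard error to reach the smallest Wald statistic among genes with an adjusted p-value under 0.05 (3.68). The intervals of Adora2a, Rgs9, Gpr6 and Ppp1r1b lie above 0, those of Penk, Pde10a and Rxrg cross it, and every point is left of its tick.

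Of the 3 genes of the indirect pathway among the 7, Adora2a, the adenosine receptor through which adenosine raises cyclic AMP in these neurons, had the largest difference. Its log2 fold change was 1.95 (SE 0.71; adjusted p 0.286) per the authors' deposited table, a 3.87-fold difference at a mean count of 76.0. The 95% confidence interval ran from 0.56 to 3.34 on the log2 scale, that is from 1.48-fold to 10.1-fold. Gpr6, an orphan receptor that raises cyclic AMP without a known ligand, had 1.02 (SE 0.43; unadjusted p 0.0185) per the authors' deposited table, and an interval from 0.17 to 1.87. Penk, the enkephalin precursor, had 0.59 (SE 0.37; adjusted p 0.823) per the authors' deposited table. Its interval, from -0.13 to 1.31, holds 0 as well as a difference of 2.48-fold. The 3 intervals overlap one another, and whether the genes differ among themselves was not tested.

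Of the genes found in both classes of medium spiny neurons, Rgs9 and Ppp1r1b had intervals above 0. Rgs9 had a log2 fold change of 1.15 (SE 0.41; adjusted p 0.267) per the authors' deposited table, and an interval from 0.34 to 1.95. For Ppp1r1b the value was 0.70 (SE 0.23) per the authors' deposited table, a 1.62-fold difference, with an interval from 0.24 to 1.16. Its adjusted p-value of 0.189 per the authors' deposited table was the smallest of the 6 that have one. Pde10a, the phosphodiesterase that degrades cyclic AMP and cyclic GMP, was much closer to 0, at 0.14 (SE 0.23; adjusted p 0.995) per the authors' deposited table. Its interval, from -0.31 to 0.60, leaves out a difference above 1.51-fold in the positive direction. Rxrg had 0.11 (SE 0.35; adjusted p 0.999) per the authors' deposited table, and an interval from -0.57 to 0.80. At the standard errors given, a gene had to differ by 1.80-fold (Pde10a) to 6.11-fold (Adora2a) to pass the threshold, so smaller differences in these genes could not be called.

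Levels were compared between genes as the mean normalized count per kb of exon, computed from the authors' deposited table. Penk (359) and Ppp1r1b (327) were the most abundant per kb, Pde10a followed at 183, Rxrg (62.0) and Rgs9 (60.2) were near the median gene of the table (63.7), and Adora2a (24.8) and Gpr6 (18.1) were lowest. Penk lay at the 87.0th and Gpr6 at the 30.0th percentile of all genes on this scale. The 2 genes lowest per kb, Adora2a and Gpr6, were among the 3 with the largest fold changes, together with Rgs9. The order of Penk and Ppp1r1b, and that of Rxrg and Rgs9, changed when the longest transcript was used as the length, and no spread over libraries is at hand to separate neighbours.

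Close relatives set these levels in scale. Adora1, the A1 receptor that lowers cyclic AMP, stood at 558 per kb, and Adora2b at 20.1, on the scale of mean normalized counts per kb computed from the authors' deposited table. Of the orphan receptors nearest to Gpr6, Gpr12 had 107 and Gpr3 28.3 on that scale. Rxrb (243) and Rxra (106) were both above Rxrg, and the phosphatase inhibitor Ppp1r1a (849) was above Ppp1r1b. The log2 fold changes of these relatives were near 0 per the authors' deposited table: 0.16 for Adora1, -0.10 for Adora2b, 0.01 for Gpr12, 0.0023 for Gpr3, -0.07 for Rxrb, 0.06 for Rxra and -0.03 for Ppp1r1a. None of these 7 relatives had an adjusted p-value under 0.05 per the authors' deposited table; the smallest was 0.389, for Adora1.

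**Figure D2:**
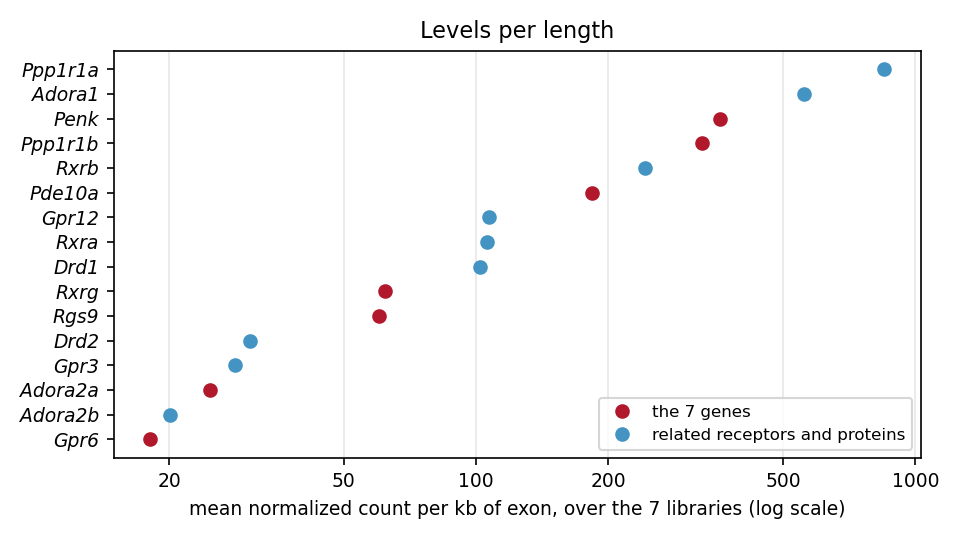
The x axis, on a log scale, gives the mean normalized count per kb of exon over the 7 libraries; red points are the 7 genes and blue points related receptors and proteins. The red points spread from 18.1 for Gpr6 to 359 for Penk.

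The standard errors of the 7 genes were wide for their abundance. Each was divided by the median standard error of the 200 genes nearest in mean count, from the authors' deposited table. The ratio was 4.10 for Penk, 3.93 for Rgs9, 3.63 for Pde10a, 3.35 for Adora2a, 3.02 for Ppp1r1b, 2.21 for Rxrg and 1.36 for Gpr6. Thus 6 of the 7 genes were above 2, where 1.45% of all genes with a p-value were. Pde10a is abundant, with a mean count of 2354 per the authors' deposited table, and genes of like abundance had standard errors 3.63 times smaller. At equal depth and equal group means, the standard error of Adora2a corresponds to a coefficient of variation of 64.4% between libraries of a group, that of Penk to 33.4% and that of Pde10a to 20.9%, beside a median of 8.94% over the 13060 genes adjusted by the authors. These percentages come from the standard errors alone. The median spans genes of every abundance among the 13060, so unlike the ratios above it is not a comparison at like abundance. If the authors' program treated genes unlike one another, as its default described under processing does, the percentages are not measured alike across genes. Which libraries were high or low in these genes cannot be read from the values used here.

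**Figure D3:**
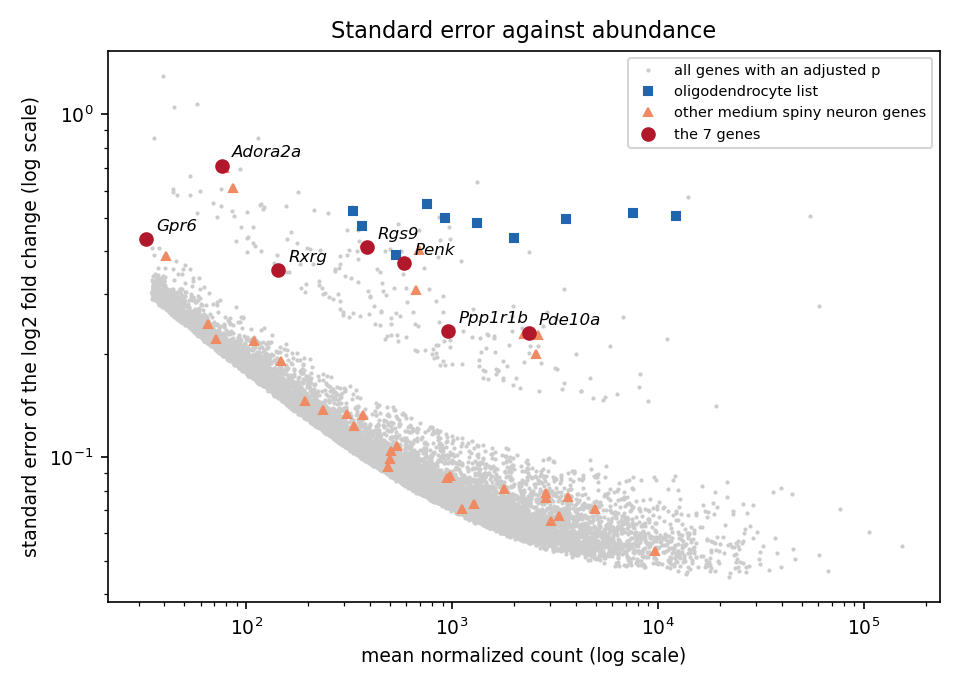
The x axis gives the mean normalized count and the y axis the standard error of the log2 fold change, both on log scales; grey dots are all genes with an adjusted p-value, red circles the 7 genes, orange triangles other medium spiny neuron genes and blue squares the oligodendrocyte list. Of the red circles, 6 lie in a sparse band above the main cloud, Gpr6 lies near the cloud's edge without an adjusted p-value of its own, and the orange triangles fall partly in the band and partly in the cloud.

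The other genes of medium spiny neurons were taken from 3 lists, which hold 38 genes beside the 7; the authors' deposited table lists all of them, and 33 had an adjusted p-value. Of the 33, 24 were positive and 9 negative, at a median log2 value of 0.13, where the median of all genes tested was -0.0017 and 49.4% were positive. Of these genes 1, Drd1, was under the threshold by the authors' deposited table, where 0.513% of all genes were. Without adjustment, 10 positive genes and 1 negative gene had a p-value under 0.05. Over all genes, 6.82% passed in either direction and 4.04% on the positive side. The lists were written with earlier results of these data known, so nothing is read from these counts.

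These 33 genes parted by standard error, and whether the default of the authors' program, described under processing, set this split was not tested. For 7 of them the ratio to genes of like abundance was between 3.05 and 4.70, and for the other 26 it was at most 1.36. The 7 wide ones, singled out after their values were seen, included Drd2, Gng7, Syndig1l, Ano3, Scn4b and Bcl11b. Their log2 fold changes per the authors' deposited table ran from -0.05 for Ano3 to 1.68 for Syndig1l, with a median of 0.33, against a median of 0.07 for the 26. Scn4b, a sodium channel subunit, had the widest error for its abundance and a log2 fold change of 0.18 per the authors' deposited table, so a wide error did not always come with a large difference.

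On the indirect-pathway list, 4 of the 6 other genes with an adjusted p-value were positive, and none was under the threshold. Their median was 0.16, 0.07 over the 5 whose mean count reached 100, and 0.25 over all 7 listed beside Adora2a, Penk and Gpr6. Drd2 was closest to Adora2a, with a log2 fold change of 1.63 (SE 0.70; adjusted p 0.461) and a standard error ratio of 3.33 per the authors' deposited table. The transcription factor Sp9 had 0.59 (SE 0.22; adjusted p 0.312), and the kainate receptor subunit Grik3 0.25 (SE 0.07; adjusted p 0.0806), per the authors' deposited table. Gpr52 (0.07), Oprd1 (-0.01) and Ptprm (-0.0046) were near 0 per the authors' deposited table. The transcription factor Six3, at a mean count of 14.4 and with no adjusted p-value, had a log2 fold change of 4.52 (SE 1.03, unadjusted p 1.11e-05) per the authors' deposited table. With no filter on the mean count, the adjusted p-value of Six3 computed here was 0.00677, under the threshold.

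On the direct-pathway list 5 of 7 genes with an adjusted p-value were positive, at a median of 0.04. Drd1, the D1 receptor, had a log2 fold change of 0.76 (SE 0.13; adjusted p 3.66e-05) per the authors' deposited table, and its error was 1.25 times that of genes of like abundance. Tac1, the substance P precursor, had 0.04 (SE 0.19; adjusted p 0.999), and Pdyn, the dynorphin precursor, -0.24 (SE 0.10; adjusted p 0.501), per the authors' deposited table. Chrm4 (0.10), Eya1 (0.03), Ebf1 (0.16) and Sfxn1 (-0.0082) did not pass the threshold per the authors' deposited table either. The 2 genes without an adjusted p-value were Slc35d3 and Isl1. Slc35d3 had 1.33 (SE 0.41, unadjusted p 0.00126) at a mean count of 27.4 per the authors' deposited table. Isl1 had 1.96 (SE 0.89, unadjusted p 0.0271) at a mean count of 6.02. Drd1, Tac1 and Pdyn are known in cortical neurons as well, Drd1 in layer 6.

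On the list shared by both classes, the 3 most abundant genes beside the 7 were Arpp21, Adcy5 and Gnal, with log2 fold changes of -0.04, 0.17 and -0.01 per the authors' deposited table. Adcy5, the main adenylyl cyclase of the striatum, and Gnal, its stimulating G protein, stand directly above PKA in the pathway of Ppp1r1b. Their standard errors of 0.08 and 0.07 per the authors' deposited table were 1.26 and 1.10 times those of genes of like abundance. Of 20 genes of this list other than the 7, 15 were positive and 5 negative, and none had an adjusted p-value under 0.05 per the authors' deposited table. Over all genes, 4.04% had an unadjusted p-value under 0.05 on the positive side, and this list was written with earlier results known. Of the 20 genes, 6 were under 0.05 without adjustment, all positive. Among them Lrrc10b had 1.17 (SE 0.39; adjusted p 0.184), and Sh3rf2, which has no adjusted p-value and is not among the 20, had 1.93 (SE 0.59; unadjusted p 0.000947) at a mean count of 19.5, per the authors' deposited table; both were named after their values were seen.

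The pathways around the 7 genes were described through lists of their partners, as counts of genes with an adjusted p-value beside the 0.513% called over all genes. Of 27 genes of cyclic AMP and PKA signalling, 19 were positive and 8 negative, at a median log2 value of 0.06, and Drd1 was the gene under the threshold per the authors' deposited table. Its most abundant members, Adcy1 and the PKA regulatory subunits Prkar1b and Prkar1a, had 0.06, -0.11 and 0.06 per the authors' deposited table. Of 16 kinases, phosphatases and relatives of DARPP-32, 3 were positive and 13 negative, the median was -0.04 and none was under the threshold. Ppp1r9b (spinophilin, which targets protein phosphatase 1 to spines) and the calcineurin subunits Ppp3ca and Ppp3r1 had -0.13, -0.05 and -0.06 per the authors' deposited table.

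The partners of the receptors and peptides had list medians between -0.04 and 0.07. For opioid peptides, receptors and processing enzymes without Penk, 5 of 11 were positive and the median log2 fold change was -0.01; the processing proteins Cpe, Pcsk2 and Pcsk1n had -0.03, -0.03 and -0.11 per the authors' deposited table. For adenosine receptors, transporters and enzymes without Adora2a, 6 of 9 were positive and the median was 0.07, with -0.05 for the kinase Adk and 0.02 for the transporter Slc29a2 per the authors' deposited table. For the relatives and partners of Rgs9, 2 of 8 were positive and the median was -0.04; Gnao1, Rgs7bp, which anchors these proteins at the membrane, and Gpr158 had 0.02, -0.05 and -0.02 per the authors' deposited table. Of the closest relatives of Rgs9 on that list, named after their values were seen, Rgs6 had -0.25 (SE 0.08; adjusted p 0.184), Rgs11 -0.20 (SE 0.08; adjusted p 0.389) and Rgs7 -0.05 per the authors' deposited table; Rgs6 and Rgs11 had unadjusted p-values of 0.00251 and 0.0121. For Gpr3, Gpr12 and 3 further genes listed with Gpr6, the median was -0.01; the cannabinoid receptor Cnr1, the lipid receptor S1pr1 and the stimulating G protein Gnas had -0.01, -0.11 and -0.25 per the authors' deposited table. None of these 4 lists held a gene with an adjusted p-value under 0.05 per the authors' deposited table.

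For retinoid receptors and metabolism without Rxrg, 10 of 15 were positive with a median of 0.06. Rara, the retinoic acid receptor alpha, which pairs with the family of Rxrg, was under the threshold, as were 0.513% of all genes with an adjusted p-value. Its log2 fold change was 0.56 (SE 0.12, adjusted p 0.00296) per the authors' deposited table. The nuclear receptors Nr4a1 and Nr1h2, which also pair with this family, had 0.08 and -0.12 per the authors' deposited table.

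**Figure D4:**
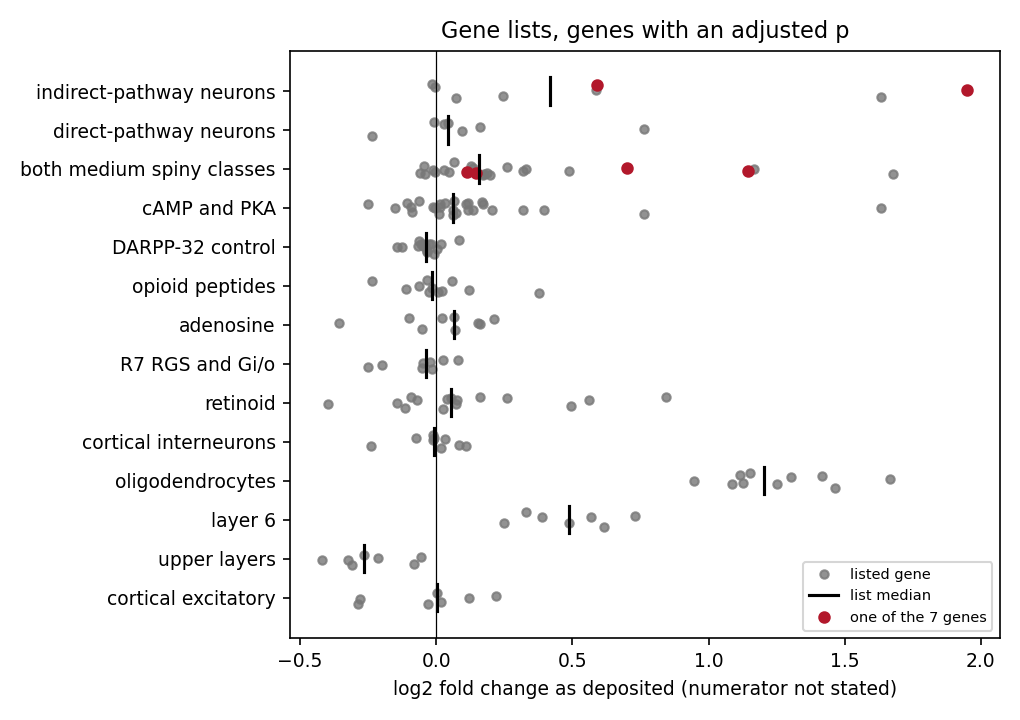
Each point is the log2 fold change, as deposited, of a gene with an adjusted p-value; rows are gene lists, black bars list medians and red points those of the 7 genes that have an adjusted p-value. The median of the indirect-pathway list is 0.42 with Adora2a and Penk, which were chosen with these fold changes known, and 0.16 without them; the other medians include 1.2 for oligodendrocytes, 0.49 for layer 6 and -0.27 for upper layers.

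Markers of other cells are given beside these values, and their part in the values of the 7 genes was not tested. All 10 oligodendrocyte genes were positive, with a median log2 value of 1.2 and a median standard error ratio of 6.65, and none was under the threshold per the authors' deposited table. The myelin genes Mbp and Mobp had 1.15 and 1.67 per the authors' deposited table. Without adjustment, all 10 oligodendrocyte genes, all 7 layer 6 genes and 4 of the 7 upper-layer genes had a p-value under 0.05. Over all genes 6.82% did in either direction, and these lists were written with earlier results known. For the authors' adjusted p-value, 0.513% of all genes that have one were under the threshold. All 7 layer 6 genes were positive, with a median of 0.49, and Foxp2, Sulf1, Hs3st4 and Tle4 were under the threshold, at 0.73, 0.62, 0.49 and 0.33 per the authors' deposited table; Crym, the most abundant, had 0.25. Each of the 7 upper-layer genes was negative; their median was -0.27, and Rasgrf2 and Otof were under the threshold, at -0.31 and -0.42 per the authors' deposited table; Cux2 and Calb1 had -0.27 and -0.21. On the layer 6b and claustrum list 5 of 8 were positive, and Ccn2 and Nxph4 were under the threshold, at 2.10 and 1.98 per the authors' deposited table; the abundant Synpr, Gnb4 and Ntng2 had -0.13, -0.01 and -0.25. The other 3 genes of that list, Cplx3, Nr4a2 and Moxd1, had 1.17 (adjusted p 0.0537), 0.50 (adjusted p 0.260) and 0.23 (adjusted p 0.922) per the authors' deposited table.

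For cortical interneurons, some of which hold Penk, 4 of 9 genes were positive and the median log2 fold change was -0.0082. Gad1 and Gad2, the enzymes of GABA synthesis, had -0.01 and 0.09, and Cck, the 1 gene under the threshold, -0.24, per the authors' deposited table. Of all genes with an adjusted p-value, 0.513% were under the threshold. For cortical excitatory neurons 4 of 7 were positive with a median of 0.0011, and Camk2a was under the threshold at -0.29 per the authors' deposited table, with -0.03 for Slc17a7 and -0.28 for Nrgn. The authors' deposited table lists 6 of 7 genes of striatal cholinergic and other interneurons. Their median log2 fold change was 0.81. Chat, the enzyme that defines cholinergic neurons, had 0.62 (SE 0.64) at a mean count of 9.44 and no adjusted p-value there. Lhx8 of this list, named after its values were seen, had 4.56 (SE 1.49, unadjusted p 0.00214) at a mean count of 5.30, also without an adjusted p-value. Whether striatal cells were present was not tested. Slc5a7, the choline transporter and the 1 gene of that list with an adjusted p-value, had 0.72 (SE 0.30; adjusted p 0.430) per the authors' deposited table. Levels per group of any of these lists were not analysed here.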

How the data were processed

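Polyadenylated RNA of 7 libraries (3 CFC, 4 SC) was sequenced after RNeasy Micro extraction and KAPA mRNA HyperPrep preparation from 100 ng, per the labels' protocols. The submitters' processing notes name Trimmomatic, Subread, DESeq2 and mm10, without versions; the annotation and the strand setting are not given in the sources used here. The authors deposited 1 table: a mean normalized count (a signal averaged over libraries), a log2 fold change with its standard error, a Wald statistic (a test score), a p-value and an adjusted p-value, per the file headers. The deposited Wald statistic equalled the log2 fold change over its standard error for each of 17729 genes. As background, the program the authors used, DESeq2, by default draws each gene's dispersion toward a trend and leaves genes far above it as they are, so that standard errors can form separate bands; whether that default was used is not stated.

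The planned count test gave way to the authors' adjusted p-values (threshold 0.05), because no counts per library are given. Computed here, with Python 3.11.15, numpy 2.4.6, scipy 1.17.1 and pandas 2.3.3, were 95% normal intervals, standard error ratios over the 200 nearest genes, Benjamini-Hochberg adjustments under other filters and counts per kb of the union of exons (GENCODE M21, GRCm38, 17726 genes matched). Of these steps, the Benjamini-Hochberg adjustment and the standard error ratios were tested on simulated data, as was the test against a null of at most 1.2-fold. The intervals, the other filters and the counts per kb were not. The genes and the 20 lists (205 genes, 201 in the table) were chosen with earlier results of these data known. Named are the 7 genes, close relatives, both pathway lists, the 3 most abundant and all called genes of other lists and the 8 nearest genes. Values of some single genes of these lists are not reported here. Depth per library is unknown.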

Additional observations from a re-analysis of the deposited data

How the results depend on the processing

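No paired analysis was possible because values of single libraries are not in the file used here; for the same reason fits with libraries left out, other normalizations or other count tests were not run, and whether 1 library sets any value was not tested. None of the 7 genes was called at a threshold of 0.1, with no filter on the mean count, with a mean count of at least 100 or against a null of at most 1.2-fold. The count over all genes was 67, and 101 at a threshold of 0.1, 60 with no filter, 68 with a mean count of at least 100 and 3 against a null of at most 1.2-fold. With no filter, Gpr6 entered the adjustment, at an adjusted p-value of 0.522 computed from the p-values of the authors' deposited table; with a mean count of at least 100, Adora2a left it. The median standard error ratio of the 7 genes was 3.35, and 3.38 and 3.30 with the 50 and 1000 nearest genes. With the longest transcript as length, the level of Rgs9 moved from 60.2 to 111 and that of Pde10a from 183 to 303 per kb. Of 42 alternative medians of gene lists, 41 moved by less than the list's typical standard error, and that of ependyma and subventricular zone moved from 0.19 to 0.45 with genes of low count included. Some of the 41 still moved by over 1.5 times: with a mean count of at least 100, the indirect-pathway list from 0.42 to 0.16 (0.16 to 0.07 without the 7 genes), septum from 0.29 to 0.07, layer 6b and claustrum from 0.36 to 0.23, opioid peptides from -0.01 to -0.03 and relatives of Gpr6 from -0.01 to -0.06; with all listed genes, the direct-pathway list from 0.04 to 0.10, the indirect-pathway list without the 7 genes from 0.16 to 0.25 and choroid plexus from 0.59 to 0.93.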

Other observations

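Lists for tissues that border the frontal cortex were examined too. On the septum list 5 of 6 genes were positive and none was under the threshold; the median log2 value was 0.29, and 0.07 over the 4 whose mean count reached 100. Its gene with the largest difference, Dlk1, named after its values were seen, had 2.44 (SE 0.69; adjusted p 0.0756) per the authors' deposited table, and a standard error 3.61 times that of genes of like abundance. The most abundant genes of this list, Matn2, Trpc4 and Zic1, had -0.19, 0.07 and 0.57 per the authors' deposited table. On the list for ependyma and subventricular zone all 3 genes with an adjusted p-value, Dcx, Dlx1 and Dlx2, were positive, at 0.19, 0.12 and 0.45 per the authors' deposited table; Dlx1 and Dlx2 are shared with cortical interneurons. Foxj1, the ependymal marker of this list, had 0.57 (SE 0.42; unadjusted p 0.175) at a mean count of 21.1 and has no adjusted p-value per the authors' deposited table. Igfbpl1, a gene of immature neurons, had 4.10 (SE 1.31) at a mean count of 21.2 per the authors' deposited table. Lhx8, a transcription factor of forebrain cholinergic neurons and on the striatal interneuron list above, had 4.56 (SE 1.49) at a mean count of 5.30 there. Both were named after their values were seen and have no adjusted p-value. On the choroid plexus list, Ttr, the transthyretin gene, had 1.86 (SE 1.11) per the authors' deposited table and is 1 of 3 genes listed there with no p-value. Kl, the 1 gene of that list with an adjusted p-value, had 0.59 (SE 0.22; adjusted p 0.322) per the authors' deposited table.

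The genes most like the 7 were sought among 13047 others, over the 1 comparison at hand. The measure was the distance, in log2 fold change and log2 standard error ratio, from the medians of the 6 genes with an adjusted p-value, 0.64 and 1.80; Gpr6 was left out of these medians. The nearest 8 were Gsn, Neat1, Col23a1, Sox10, Zbtb20, Bcl11b, Lmo3 and Plxnb3. Their log2 fold changes per the authors' deposited table were 0.69, 0.73, 0.75, 0.60, 0.47, 0.49, 0.45 and 0.87. Their standard errors were 3.14 to 3.68 times those of genes of like abundance. Bcl11b, a transcription factor of medium spiny neurons and of deep cortical layers, was the 1 gene among them on a list used here. Sox10 is known from the oligodendrocyte lineage, and the cell types of the other nearest genes were not examined here.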
